A study of Homo sapiens with 12 samples.

Results

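The 57 genes described here act in the G2 phase of the cell cycle and in mitosis, and they were followed in 2 triple-negative breast cancer cell lines after knockdown of PHF19. The members were taken by name from both deposited result tables, and not by a threshold on measured values. These names and the further gene lists were chosen with earlier results of these data known. Shares set beside all genes below are therefore descriptions and no test. All 57 had a row and an adjusted p-value in each table, out of 29972 gene rows in a table and of 14243 genes tested in MDA-MB-436, or 12906 tested in BoM-1833. MDA-MB-436 is an established breast cancer line, and BoM-1833 is a derivative of MDA-MB-231 selected for growth in bone.

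Both lines were kept in DMEM with FCS and reverse transfected with Lipofectamine RNAiMAX to a total of 5 nM siRNA, and RNA was taken 72 h later. The siNT groups received a non-targeting control pool from Dharmacon, and the siPHF19 groups a mixture of 2 Silencer Select siRNAs against PHF19 from ThermoFisher. There were 4 groups of 3 libraries, 12 in all. Transfection reagent, dose and time were thus shared by control and knockdown cells, and because the siRNAs against PHF19 were pooled and come from another supplier than the control, an effect of one siRNA alone cannot be told apart from the loss of PHF19. The labels do not say that the 3 libraries of a group came from separate cultures, so the p-values measure only the spread between these libraries. In bulk RNA, fewer cells in G2 and mitosis and less RNA of these genes per cell cannot be told apart.

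Entry into mitosis is driven by cyclin-dependent kinase CDK1 bound to A- and B-type cyclins, and is held back by inhibitory phosphorylation that CDC25 phosphatases remove. Aurora, Polo-like and NEK kinases then build the spindle, kinetochores attach chromosomes to it, the spindle checkpoint delays anaphase until all are attached, and the anaphase-promoting complex (APC/C) with CDC20 ends mitosis by marking cyclin B and securin for destruction. Most of these genes are transcribed together late in the cell cycle, through the MuvB complex with B-MYB (MYBL2) and FOXM1, and are silenced in resting cells by the DREAM complex, which shares MuvB. PHF19 is a Polycomb-like accessory subunit of the histone methyltransferase complex PRC2.

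MuvB is known to bind a short promoter element called the cell cycle genes homology region (CHR), and NF-Y binds CCAAT boxes, so the members' promoters were searched for both, as letters on either strand. The CHR was searched as TTTGAA or TTCGAA, and the CCAAT box as CCAAT; the motifs do not overlap each other in their letters. RefSeq promoters on GRCh38.p14, running from 250 bases before to 50 after the transcript start, were matched for 49 of the 57 members and for 15842 protein-coding genes. Where a gene had several listed starts only the outermost was searched, so letters near another start could be missed. CHR letters stood in 36 of the 49 members' promoters (73.5%) against 13.6% of all promoters, and CCAAT letters also in 36 (73.5%) against 36.4%. Both stood in 28 (57.1%) against 5.67% of all promoters. Within the last 60 bases before the start the CHR letters were found in 42.9% of the members' promoters and 2.36% of all. The windows below are shown because they belong to members called different after siPHF19, the first 7 with CHR letters and the other 5, which hold no CHR letters in the searched promoter, with CCAAT letters, or ATTGG where the box lies on the opposite strand. Each runs 5′ to 3′ along the gene's strand, and the capitals mark the match.
PLK1, chr16:23678848-23678877, plus strand: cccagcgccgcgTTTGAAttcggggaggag
CENPA, chr2:26786026-26786055, plus strand: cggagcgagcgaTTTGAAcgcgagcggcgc
KIF18B, chr17:44947754-44947783, minus strand: ccgcccggctaaTTTGAAcgcaaggcgccg
NUSAP1, chr15:41332882-41332911, plus strand: tggcgccagggaTTTGAAccgcgctgacga
PRC1, chr15:90994538-90994567, minus strand: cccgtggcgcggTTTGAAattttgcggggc
HMMR, chr5:163460598-163460627, plus strand: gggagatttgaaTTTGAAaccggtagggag
CDK1, chr10:60778158-60778187, plus strand: gagtataataaaTTTGAActgtgccaatgc
CCNA2, chr4:121823922-121823951, minus strand: gcgagcgctttcATTGGtccatttcaatag
KIF20A, chr5:138179033-138179062, plus strand: cttccctatctgATTGGccgaacgaacgca
NEK2, chr1:211675638-211675667, minus strand: gcccaccgcctgCCAATagactgcgagatc
AURKB, chr17:8210361-8210390, minus strand: accagcgcccagATTGGggctagtgtgctg
NCAPH, chr2:96335642-96335671, plus strand: accccaagaagcCCAATcagacggggtcct

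Counted from the transcript start, with bases before it negative, the CHR letters of PLK1, CENPA and PRC1 began at -29, -18 and -20 and the shown match of HMMR at -22. Those of KIF18B and NUSAP1 began at 3 and 14, after the start, and those of CDK1 at -161. HMMR held a second match directly before the one shown. Over all 47 CHR matches in the 36 promoters the median first base was -23 (interquartile range, -41 to 2). CDC25B and MYBL2, each called in at least 1 line, had neither set of letters in the window. The called members BIRC5, BUB3 and FOXM1 had no matched promoter. A match is a description of letters and shows no binding.

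**Figure D1:**
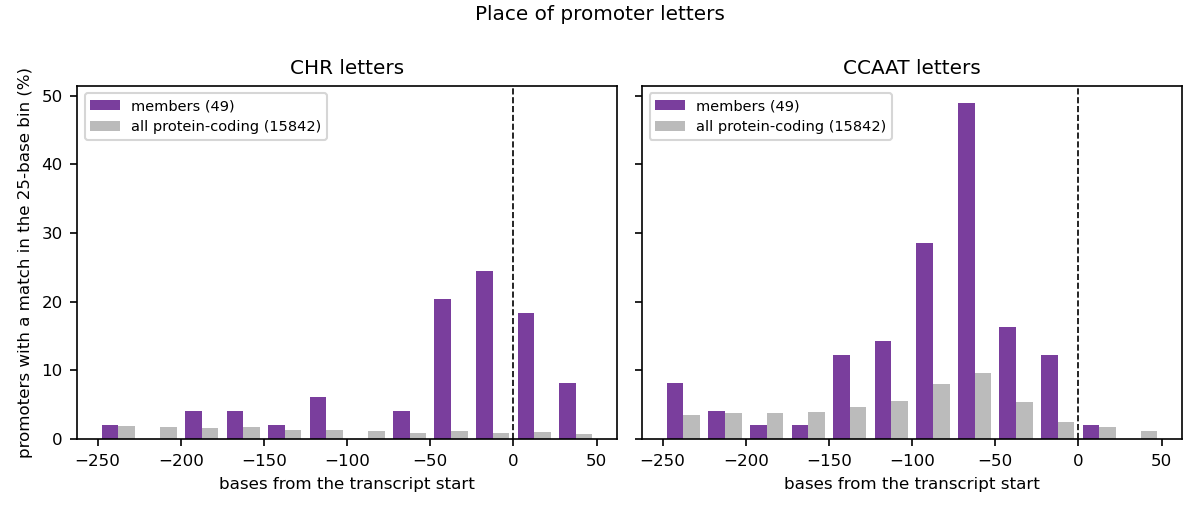
Percentage of promoters with CHR letters (left) and CCAAT letters (right) in each 25-base bin, against the distance in bases from the transcript start (dashed line), for 49 members (purple) and 15842 protein-coding promoters (grey). The members' CHR letters gather in the bins around the start and their CCAAT letters in the bin from 75 to 51 bases before it, where 49.0% of the members and 9.61% of all promoters hold them.

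Before the members' response, 3 facts of the libraries bear on it. Libraries held 15.2 to 24.0 M reads in MDA-MB-436, with 13.7 to 21.3 M in BoM-1833, as recovered from the deposited normalized counts. PHF19 itself fell in every siPHF19 library, to 9.75% of the siNT mean in MDA-MB-436, or 10.9% in BoM-1833. ESR1 had at most 4 reads and PGR at most 2 in any library, while KRT18 and VIM were well expressed. EPCAM was low, at 4.28 to 6.10 CPM in MDA-MB-436 and 5.18 to 8.18 CPM in BoM-1833. ERBB2 stood at 48.7 to 63.9 and 59.5 to 69.8 CPM, and KRT8 at 53.8 to 98.5 and 517 to 886 CPM, MDA-MB-436 first. CD3E had no read, although CD68 reached 198 CPM and PECAM1 24.0 CPM in BoM-1833; the summed level of 8 immune, endothelial and stromal markers was 45.7 to 49.5 CPM in the siNT and 38.9 to 43.3 CPM in the siPHF19 libraries of MDA-MB-436, and 226 to 245 against 230 to 237 CPM in BoM-1833, and their part in the results was not tested. One BoM-1833 control, siNT library 1, stood apart from the other 2 for several members: MKI67 was at 5697 normalized counts there against 7608 and 7584, and TOP2A at 8831 against 10055 and 10082.

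In control cells the mitotic genes were among the better expressed ones. Their median level in the siNT libraries was 34.7 RPKM (reads scaled to transcript length and to the library total) in MDA-MB-436 versus 32.8 in BoM-1833, against 8.46 and 10.1 for all tested genes with a length, and 56 and 54 of the 57 lay above that median. CDC20, the activator of APC/C, was highest in MDA-MB-436 at 178 ± 5.63 RPKM (SD, n = 3), next to UBE2C, the E2 enzyme of APC/C, at 174 ± 10.7, and this pair does not differ beyond its spread. UBE2C was highest in BoM-1833 at 177 ± 12.9, followed by PTTG1 (securin) at 124 ± 13.7 and TPX2 at 120 ± 3.18, the last pair again within their spread. SPC24, a subunit of the NDC80 kinetochore complex, was lowest in both, at 7.55 ± 0.52 and 4.55 ± 0.69. RPKM used the longest annotated transcript, so places between genes depend on that length. For SPC24 it was 2315 bases, with a 3′ UTR of 1689. UBE2C has 4 annotated pseudogenes and CDC20 has 1, which makes their counts less certain. The lines were normalized in separate tables, so their levels were set side by side without a test. MYBL2 stood at 82.3 ± 1.14 RPKM in MDA-MB-436 versus 21.3 ± 0.32 in BoM-1833, which took it from place 10 to place 38 among the members. FOXM1 stood at 133 ± 12.5 and 53.0 ± 1.57, whereas ECT2, the exchange factor that activates RhoA in cytokinesis, stood at 19.6 ± 1.64 and 56.9 ± 3.91, and BUB3 at 25.2 ± 1.14 and 48.2 ± 2.57.

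**Figure D2:**
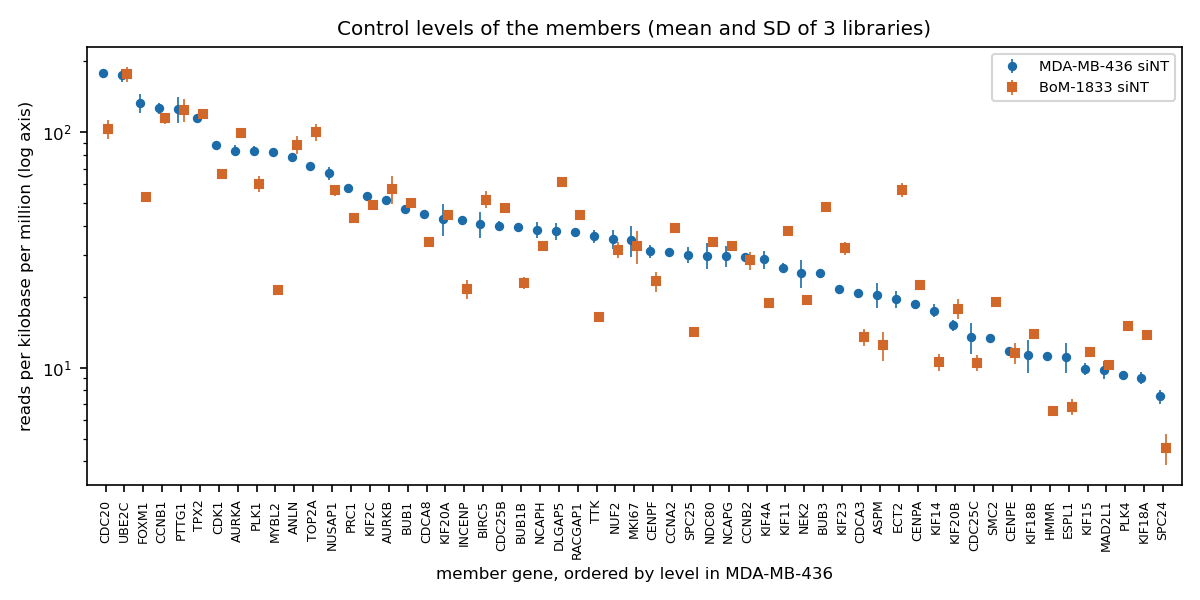
Mean RPKM (log axis) of each member in the 3 siNT libraries of MDA-MB-436 (blue circles) and BoM-1833 (orange squares), with the SD as bars and genes ordered by their level in MDA-MB-436. CDC20 and UBE2C lead in MDA-MB-436 and UBE2C in BoM-1833, SPC24 is lowest in both lines, and MYBL2, FOXM1 and ECT2 are among the members whose 2 points lie far apart.

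After siPHF19 most mitotic genes were not called in either line. CCNA2, CDC25B, KIF20A and FOXM1 rose in both lines and BUB3 fell in both. Among them only CDC25B kept its call in both lines under every alternative fit. AURKB, BIRC5, HMMR and NCAPH were called lower in MDA-MB-436 only, and MYBL2 higher in BoM-1833 only. In the test of the difference between lines given below, BIRC5, NCAPH and MYBL2 passed, and AURKB and HMMR did not. In MDA-MB-436, 12 of the 57 members were called at an adjusted p under 0.05 by the DESeq2 Wald test of the authors' deposited table, which is 21.1% of them beside 22.1% of all genes tested. Of these 7 rose (12.3%, against 10.5% of all genes) and 5 fell (8.77%, against 11.5%). In BoM-1833, 10 members were called, 17.5% beside 10.9% of all genes: 9 rose (15.8%, against 5.21%) and 1 fell (1.75%, against 5.72%). The share called in MDA-MB-436 was thus near the background, and in BoM-1833 the higher calls stood above it and the lower calls below it. Most members were expressed above the median tested gene, and this background was not matched for level. The siNT and siPHF19 libraries of 28 members did not overlap in MDA-MB-436 (49.1%, against 42.2% of all genes), 11 of them higher after siPHF19, and those of 23 did not overlap in BoM-1833 (40.4%, against 31.0%), 19 of them higher. The calls depended on single libraries: refits with DESeq2 on recovered reads called 5 members in MDA-MB-436 without siPHF19 library 1, 6 without siNT library 2 or siPHF19 library 2 or 3, and 15 without siNT library 3. In BoM-1833 they called 5 without siPHF19 library 2, 6 without siNT library 2 or siPHF19 library 3, and 18 (14 higher, 4 lower) without siNT library 1. Leaving out a library changes the test for every gene. The share of all genes called in each refit is not given here, so these counts cannot be read as particular to the members.

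The sizes were small. The members' log2 fold changes of the authors' deposited tables ran from -0.50 to 0.41 in MDA-MB-436, whereas BoM-1833 spanned -0.34 to 0.57. Below, each is given ± its standard error (SE), with the adjusted p of the DESeq2 Wald test. Their median was -0.03 in MDA-MB-436, where 23 of the 57 were above 0 (40.4%, against 49.6% of all genes), and 0.08 in BoM-1833, where 41 were above 0 (71.9%, against 49.1%). The median of all tested genes was -0.00 in both lines. The median size of change, whatever its sign, was 0.10 for the members in either line and 0.18 and 0.12 for all tested genes. At an unadjusted p under 0.05 (DESeq2 Wald test), 18 members passed in each line. The share of all genes at that threshold is not given here, so the equal count does not show an equal response.

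Calls shared by the lines, with 1 sign, were made for 5 members (8.77%, against 5.67% of the 12290 genes tested in both): CCNA2, CDC25B, KIF20A and FOXM1 rose and BUB3 fell. They make up 41.7% of the MDA-MB-436 calls and 50% of the BoM-1833 calls. No member was called in opposite directions. The calls in either line covered 17 members and left 40 in neither, whose log2 fold changes stayed between -0.23 and 0.18 in MDA-MB-436 and between -0.17 and 0.25 in BoM-1833, with median standard errors over all members of 0.08 and 0.07.

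**Figure D3:**
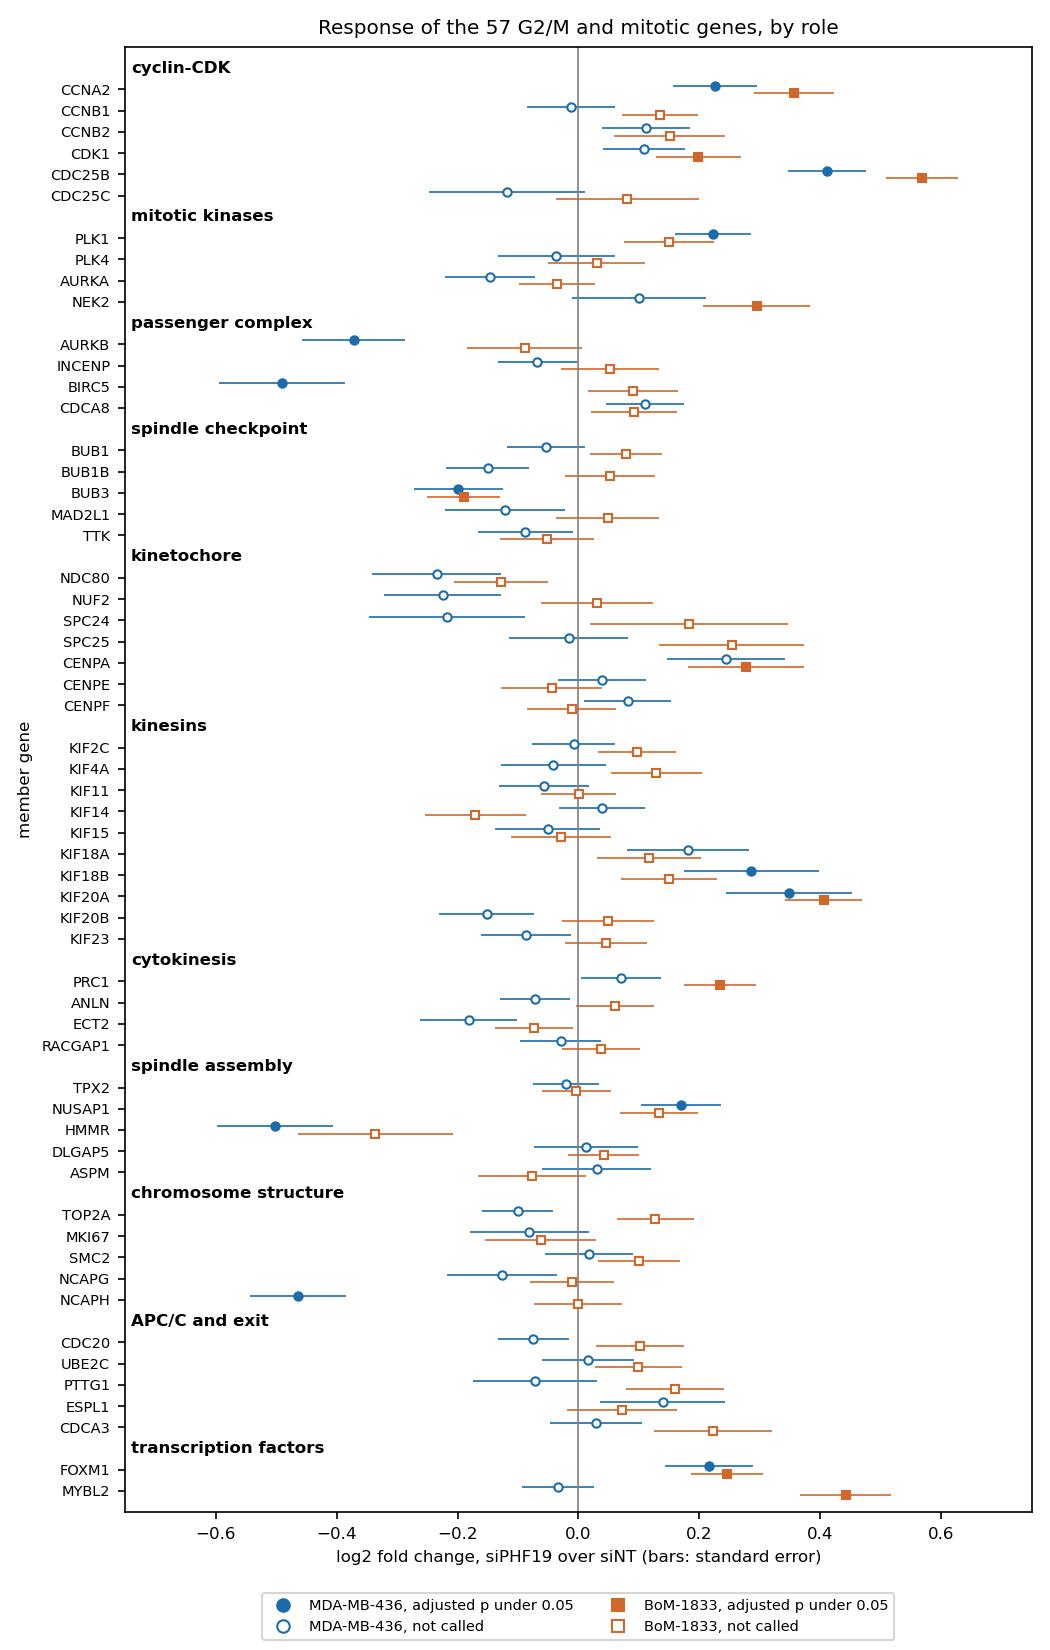
log2 fold change of siPHF19 over siNT for each of the 57 members, grouped by role, with its standard error as a bar; circles are MDA-MB-436, squares BoM-1833, and filled marks have an adjusted p under 0.05. Most marks lie close to 0, CDC25B is the highest in both lines and HMMR the lowest in both.

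The cyclin and CDK group held calls in 1 direction. Of its 6 members 2 rose in MDA-MB-436 (33.3%, against 10.5% of all genes) and 3 in BoM-1833 (50%, against 5.21%). None fell in either line, and the group's median log2 fold change was 0.11 and 0.17. The role groups are small, so their shares are coarse. CDC25B, a phosphatase that activates cyclin-CDK complexes at the G2/M transition (chr20:3786772-3806121, plus strand, on hg38), had 2624, 2792 and 2683 normalized counts in the siNT libraries of MDA-MB-436 and 3565, 3528 and 3679 in the siPHF19 libraries. In BoM-1833 it had 2980, 2789 and 2837 against 4225, 4317 and 4218. The groups were far apart in both lines, with every siPHF19 library above every control. The rise was 0.41 on the log2 scale (SE 0.06, adjusted p = 7.5e-09) in MDA-MB-436 versus 0.57 ± 0.06 (adjusted p = 6.11e-19) in BoM-1833 per the authors' deposited tables (DESeq2 Wald test), the smallest adjusted p among the members in each line.

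CCNA2, which encodes cyclin A2 and acts in S phase and G2 (chr4:121816444-121823933, minus strand), had 1599, 1675 and 1629 normalized counts in the MDA-MB-436 controls and 1876, 1954 and 1904 after siPHF19. In BoM-1833 the controls had 1819, 1922 and 1779 and the siPHF19 libraries 2314, 2399 and 2352. The siPHF19 libraries again lay above all controls in both lines. By DESeq2 in the authors' deposited tables CCNA2 rose by 0.23 ± 0.07 (adjusted p = 0.00819) and 0.36 ± 0.07 (adjusted p = 3.83e-06). The MDA-MB-436 call ended without siNT library 2 or any one siPHF19 library (DESeq2 adjusted p = 0.0864 to 0.17). EXOSC9 is annotated on the opposite strand and overlaps CCNA2, and whether the counting used the strand that the library kit records is not given in the sources used here.

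CDK1, the mitotic kinase itself, was called in BoM-1833, where the authors' deposited table (DESeq2) gives 0.20 ± 0.07 (adjusted p = 0.0443), beside 0.11 ± 0.07 (adjusted p = 0.266) in MDA-MB-436; its libraries did not overlap in either line. Its call was lost by edgeR with TMM scaling (adjusted p = 0.0618) and, by DESeq2, without siNT library 2 or 3 or any one siPHF19 library (adjusted p = 0.107 to 0.394). The B-type cyclins CCNB1 and CCNB2 were not called, with -0.01 and 0.11 in MDA-MB-436 versus 0.13 and 0.15 in BoM-1833 per the authors' deposited tables. Without siNT library 1 CCNB1 was called higher in BoM-1833 and CDK1 in MDA-MB-436 (DESeq2 adjusted p = 0.00467 and 0.0386). The phosphatase CDC25C was not called either, with -0.12 and 0.08 in the authors' deposited tables.

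Of the 4 kinases outside the passenger complex, PLK1 was called in MDA-MB-436 and NEK2 in BoM-1833, both higher. Each is 25% of the group, against 10.5% and 5.21% of all genes called higher. PLK1, the Polo-like kinase needed for spindle assembly and mitotic entry (chr16:23677656-23690367, plus strand), had 3363, 3485 and 3577 normalized counts in the MDA-MB-436 controls and 4064, 3974 and 4128 after siPHF19. BoM-1833 had 2413, 2279 and 2057 in its controls against 2408, 2634 and 2451. The groups were separate in MDA-MB-436 and overlapped in BoM-1833, where siNT library 1 was level with the lowest siPHF19 library. The log2 fold changes of the authors' deposited tables were 0.22 ± 0.06 (DESeq2 adjusted p = 0.00313) and 0.15 ± 0.07 (adjusted p = 0.222), and without siNT library 1 PLK1 was called in BoM-1833 too (DESeq2 adjusted p = 0.0171). The MDA-MB-436 call of PLK1 ended without siNT library 2 or any one siPHF19 library (DESeq2 adjusted p = 0.0626 to 0.0996).

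NEK2, a kinase of centrosome separation (chr1:211658657-211675630, minus strand), had 704, 660 and 706 normalized counts in the BoM-1833 controls and 816, 895 and 829 after siPHF19. In MDA-MB-436 it had 1150, 1035 and 854 against 1109, 1044 and 1108. The groups were separate in BoM-1833 and lay within each other in MDA-MB-436. NEK2 was, in the authors' deposited tables (DESeq2), at 0.29 ± 0.09 (adjusted p = 0.0126) in BoM-1833 and 0.10 ± 0.11 (adjusted p = 0.577) in MDA-MB-436. Without siNT library 2 or siPHF19 library 2 or 3 the BoM-1833 call ended (DESeq2 adjusted p = 0.0722 to 0.193). NEK2 has annotated pseudogenes, which makes its counts less certain. AURKA and PLK4, kinases of the centrosome, were called in neither line, with -0.15 and -0.04 for AURKA and -0.04 and 0.03 for PLK4 in the authors' deposited tables, although AURKA was called lower in MDA-MB-436 without siNT library 3 (DESeq2 adjusted p = 0.0244).

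The chromosomal passenger complex, which corrects faulty attachments and directs cytokinesis, has 4 members here. In MDA-MB-436 its kinase AURKB and its subunit BIRC5 fell (50% of the group, against 11.5% of all genes), while INCENP and CDCA8 were not called. In BoM-1833 none of the 4 was called (against 10.9% of all genes). BIRC5 was called higher there without siNT library 1 (DESeq2 adjusted p = 0.0467). BIRC5, also known as survivin (chr17:78214186-78225636, plus strand), had 2389, 2045 and 1800 normalized counts in the MDA-MB-436 controls and 1419, 1499 and 1522 after siPHF19. The BoM-1833 controls held 2574, 2304 and 2177, and its siPHF19 libraries 2461, 2464 and 2586. All siPHF19 libraries of MDA-MB-436 were below its controls, although these spread widely, and the groups of BoM-1833 overlapped. By the authors' deposited tables the change was -0.49 ± 0.10 (DESeq2 adjusted p = 4.09e-05) in MDA-MB-436 versus 0.09 ± 0.07 (adjusted p = 0.556) in BoM-1833.

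AURKB (chr17:8204733-8210600, minus strand) had 1293, 1189 and 1151 normalized counts in the MDA-MB-436 controls and 932, 909 and 968 after siPHF19, with no overlap. In BoM-1833 it had 1388, 1161 and 1064 against 1124, 1155 and 1121, all 3 siPHF19 values lying inside the control range. The authors' deposited tables give -0.37 ± 0.09 (DESeq2 adjusted p = 0.00017) and -0.09 ± 0.10 (adjusted p = 0.681). INCENP, the scaffold, was at -0.07 and 0.05 and CDCA8 (borealin) at 0.11 and 0.09 in the same 2 columns of the authors' deposited tables, MDA-MB-436 first.

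Among the 5 spindle checkpoint genes only BUB3 was called, and it fell in both lines. That is 20% of the group, against 11.5% and 5.72% of all genes called lower. BUB3, which brings the checkpoint kinases to kinetochores (chr10:123154277-123170467, plus strand), had 3967, 3603 and 3538 normalized counts in the MDA-MB-436 controls and 3086, 3306 and 3285 after siPHF19. The BoM-1833 controls held 6628, 6365 and 5967, and its siPHF19 libraries 5381, 5634 and 5612. Every siPHF19 library lay below every control in both lines. The authors' deposited tables give -0.20 ± 0.07 (DESeq2 adjusted p = 0.0348) and -0.19 ± 0.06 (adjusted p = 0.0197), and both calls ended when library totals replaced the size factors (edgeR quasi-likelihood adjusted p = 0.0609 and 0.0601). The MDA-MB-436 call of BUB3 also ended without siNT library 1 or 2 or any one siPHF19 library (DESeq2 adjusted p = 0.0706 to 0.282), and the BoM-1833 call without siNT library 2 or any one siPHF19 library (0.106 to 0.179). BUB3 has an annotated pseudogene, BUB3P1. Its partners BUB1, BUB1B, MAD2L1 and TTK were not called, with log2 fold changes of the authors' deposited tables from -0.15 to -0.05 in MDA-MB-436 versus -0.05 to 0.08 in BoM-1833.

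No kinetochore member was called in MDA-MB-436 (against 22.1% of all genes), and 1 of 7 was called in BoM-1833 (14.3%, against 10.9%). CENPA, the histone H3 variant that marks centromeres, rose there by 0.28 ± 0.10 (DESeq2 adjusted p = 0.0387 in the authors' deposited table). In MDA-MB-436 it stood at 0.24 ± 0.10 (adjusted p = 0.0559) in the authors' deposited table, with groups that did not overlap in either line. The BoM-1833 call of CENPA ended without siNT library 2 or 3 or any one siPHF19 library (DESeq2 adjusted p = 0.106 to 0.259), and in MDA-MB-436 CENPA passed by edgeR with TMM scaling. The 4 subunits of the NDC80 complex, which binds microtubules, were not called: NDC80, NUF2, SPC24 and SPC25 were at -0.23, -0.22, -0.22 and -0.02 in MDA-MB-436 per the authors' deposited table. In BoM-1833 they were at -0.13, 0.03, 0.18 and 0.25 in the authors' deposited table. Without siNT library 3 NDC80 and NUF2 were called lower in MDA-MB-436 (DESeq2 adjusted p = 0.0051 and 0.0202). SPC24, the member with the lowest RPKM, had standard errors of 0.13 and 0.16, the second being the widest of any member in BoM-1833. CENPE and CENPF, large outer kinetochore proteins, lay between -0.04 and 0.08 in both lines in the authors' deposited tables.

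Of the 10 kinesins, motors that move along or take apart microtubules, KIF20A rose in both lines and KIF18B in MDA-MB-436. Those calls are 20% of the group in MDA-MB-436 (against 10.5% of all genes) and 10% in BoM-1833 (against 5.21%). KIF20A, a kinesin of the central spindle (chr5:138178719-138187715, plus strand), had 2188, 2631 and 2909 normalized counts in the MDA-MB-436 controls and 3515, 3174 and 3146 after siPHF19. In BoM-1833 it had 2319, 2414 and 2433 against 3308, 3123 and 3054. The groups were separate in both lines, and the controls of MDA-MB-436 were spread more widely than those of BoM-1833. The authors' deposited tables (DESeq2) give 0.35 ± 0.10 (adjusted p = 0.0062) and 0.41 ± 0.06 (adjusted p = 1.82e-08). BRD8 and CDC23 overlap KIF20A on the opposite strand. The MDA-MB-436 call ended without siPHF19 library 1 (DESeq2 adjusted p = 0.0837).

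KIF18B, which shortens astral microtubules, stood at 0.29 ± 0.11 (DESeq2 adjusted p = 0.0462) in MDA-MB-436 and at 0.15 ± 0.08 (adjusted p = 0.26) in BoM-1833 per the authors' deposited tables, and the MDA-MB-436 call was lost under 10 of 12 alternatives, among them edgeR with TMM scaling (adjusted p = 0.055) and the fits without siNT library 1 or 2 or any one siPHF19 library (DESeq2 adjusted p = 0.107 to 0.212). The other 8 kinesins, among them KIF11, which pushes spindle poles apart, and KIF23, the motor of centralspindlin, were called in neither line. Their log2 fold changes of the authors' deposited tables ran from -0.15 (KIF20B) to 0.18 (KIF18A) in MDA-MB-436 versus -0.17 (KIF14) to 0.13 (KIF4A) in BoM-1833, where KIF14 was called lower without siNT library 1 (DESeq2 adjusted p = 0.039).

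In cytokinesis, 1 of the 4 members was called, in BoM-1833 (25%, against 10.9% of all genes), and none in MDA-MB-436 (against 22.1%). PRC1 here is the protein regulator of cytokinesis, which bundles microtubules in the central spindle, not the Polycomb complex of the same name (chr15:90966038-90995629, minus strand). It had 3015, 2935 and 2954 normalized counts in the BoM-1833 controls and 3427, 3601 and 3444 after siPHF19. In MDA-MB-436 it had 4738, 4330 and 4317 against 4725, 4627 and 4698. The groups were separate in BoM-1833, while in MDA-MB-436 the highest value was a control. PRC1 rose by 0.23 ± 0.06 (DESeq2 adjusted p = 0.00178) in BoM-1833 and was at 0.07 ± 0.07 (adjusted p = 0.50) in MDA-MB-436 per the authors' deposited tables. Without siPHF19 library 2 the BoM-1833 call ended (DESeq2 adjusted p = 0.0734). The antisense gene PRC1-AS1 overlaps it. ANLN, ECT2 and RACGAP1, which build the contractile ring, were called in neither line, with values in the authors' deposited tables from -0.18 to -0.03 in MDA-MB-436 versus -0.07 to 0.06 in BoM-1833. ECT2 was called lower in MDA-MB-436 without siNT library 1 (DESeq2 adjusted p = 0.00895).

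Spindle assembly factors went both ways in MDA-MB-436, where 1 of 5 rose and 1 fell (20% each, against 10.5% and 11.5% of all genes). None of them was called in BoM-1833 (against 10.9% of all genes). HMMR, a microtubule- and hyaluronan-binding protein of the spindle (chr5:163460203-163491945, plus strand), had 676, 643 and 643 normalized counts in the MDA-MB-436 controls and 464, 453 and 469 after siPHF19. BoM-1833 had 330, 334 and 356 in its controls against 281, 285 and 240. The siPHF19 libraries were below the controls in both lines. HMMR fell in MDA-MB-436, at -0.50 ± 0.10 (DESeq2 adjusted p = 3.68e-06), and was at -0.34 ± 0.13 (adjusted p = 0.0732) in BoM-1833 per the authors' deposited tables. The second value passed the threshold by edgeR's quasi-likelihood test with TMM scaling. HMMR-AS1 overlaps the gene on the opposite strand. NUSAP1, which binds spindle microtubules, was at 0.17 ± 0.07 (DESeq2 adjusted p = 0.0453) in MDA-MB-436 versus 0.13 ± 0.06 (adjusted p = 0.205) in BoM-1833 per the authors' deposited tables. The NUSAP1 call ended by edgeR with TMM scaling (adjusted p = 0.055) and, by DESeq2, without siNT library 1 or 2 or any one siPHF19 library (adjusted p = 0.0757 to 0.28). TPX2, DLGAP5 and ASPM were called in neither line, with values from -0.08 to 0.04 in the authors' deposited tables, and ASPM was called lower in BoM-1833 without siNT library 1 (DESeq2 adjusted p = 0.0316).

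Among the chromosome structure genes NCAPH, a subunit of condensin I, which compacts mitotic chromosomes (chr2:96335787-96373845, plus strand), was the only one called. NCAPH was 1 of 5 such genes in MDA-MB-436 (20% called, against 22.1% of all genes), with none called in BoM-1833 (against 10.9%). It had 2014, 2128 and 2272 normalized counts in the MDA-MB-436 controls and 1599, 1579 and 1468 after siPHF19. The BoM-1833 controls held 1691, 1611 and 1550, and its siPHF19 libraries 1539, 1678 and 1636. The groups were far apart in MDA-MB-436 and mixed in BoM-1833. The authors' deposited tables (DESeq2) give -0.46 ± 0.08 (adjusted p = 1.53e-07) and -0.00 ± 0.07 (adjusted p = 0.997). The other condensin members SMC2 and NCAPG were not called, with 0.02 and -0.13 in MDA-MB-436 versus 0.10 and -0.01 in BoM-1833 per the authors' deposited tables. TOP2A, the topoisomerase that untangles chromosomes, was at -0.10 and 0.13, and the proliferation marker MKI67 at -0.08 and -0.06, in the authors' deposited tables. MKI67 in MDA-MB-436 had controls of 7349, 7910 and 9488 and siPHF19 libraries of 8342, 7719 and 7331 normalized counts, which overlapped. In BoM-1833, without the control library that stood apart, MKI67 was called lower (DESeq2 adjusted p = 0.00478), so its result there rests on that library.

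None of the 5 genes of APC/C and mitotic exit was called in either line, against 22.1% and 10.9% of all genes. CDC20, UBE2C, PTTG1, the protease ESPL1 (separase) and CDCA3 lay between -0.07 and 0.14 in MDA-MB-436 per the authors' deposited table. In BoM-1833 all 5 were above 0, from 0.07 to 0.22, in the authors' deposited table, and PTTG1 and CDCA3 were called higher there without siNT library 1 (DESeq2 adjusted p = 0.000742 and 0.0179).

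Both transcription factors of the late cell cycle rose in BoM-1833, and FOXM1 also in MDA-MB-436. That is 100% and 50% of 2 genes, against 5.21% and 10.5% of all genes called higher. FOXM1, a forkhead factor that activates G2/M genes (chr12:2857681-2877155, minus strand), had 7988, 8772 and 9360 normalized counts in the MDA-MB-436 controls and 10178, 9934 and 10221 after siPHF19. The BoM-1833 controls held 3170, 3110 and 3003, and its siPHF19 libraries 3743, 3576 and 3690. All siPHF19 libraries exceeded all controls in both lines. FOXM1 rose by 0.22 ± 0.07 (DESeq2 adjusted p = 0.018) and 0.25 ± 0.06 (adjusted p = 0.000895) in the authors' deposited tables. The MDA-MB-436 call ended without siNT library 2 or any one siPHF19 library (DESeq2 adjusted p = 0.0996 to 0.137). ITFG2 and RHNO1 overlap FOXM1 on the opposite strand.

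MYBL2, or B-MYB, the MYB factor that joins MuvB (chr20:43667019-43716496, plus strand), had 963, 971 and 965 normalized counts in the BoM-1833 controls and 1277, 1325 and 1338 after siPHF19. In MDA-MB-436 it had 4190, 4182 and 4156 against 4024, 4011 and 4205. The BoM-1833 groups were far apart, and in MDA-MB-436 the highest and the lowest value both came from siPHF19 libraries. MYBL2 rose by 0.44 ± 0.08 (DESeq2 adjusted p = 2.92e-07) in BoM-1833 and was at -0.03 ± 0.06 (adjusted p = 0.745) in MDA-MB-436 per the authors' deposited tables. The line in which MYBL2 rose is the one with its lower control level, given above in RPKM.

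**Figure D4:**
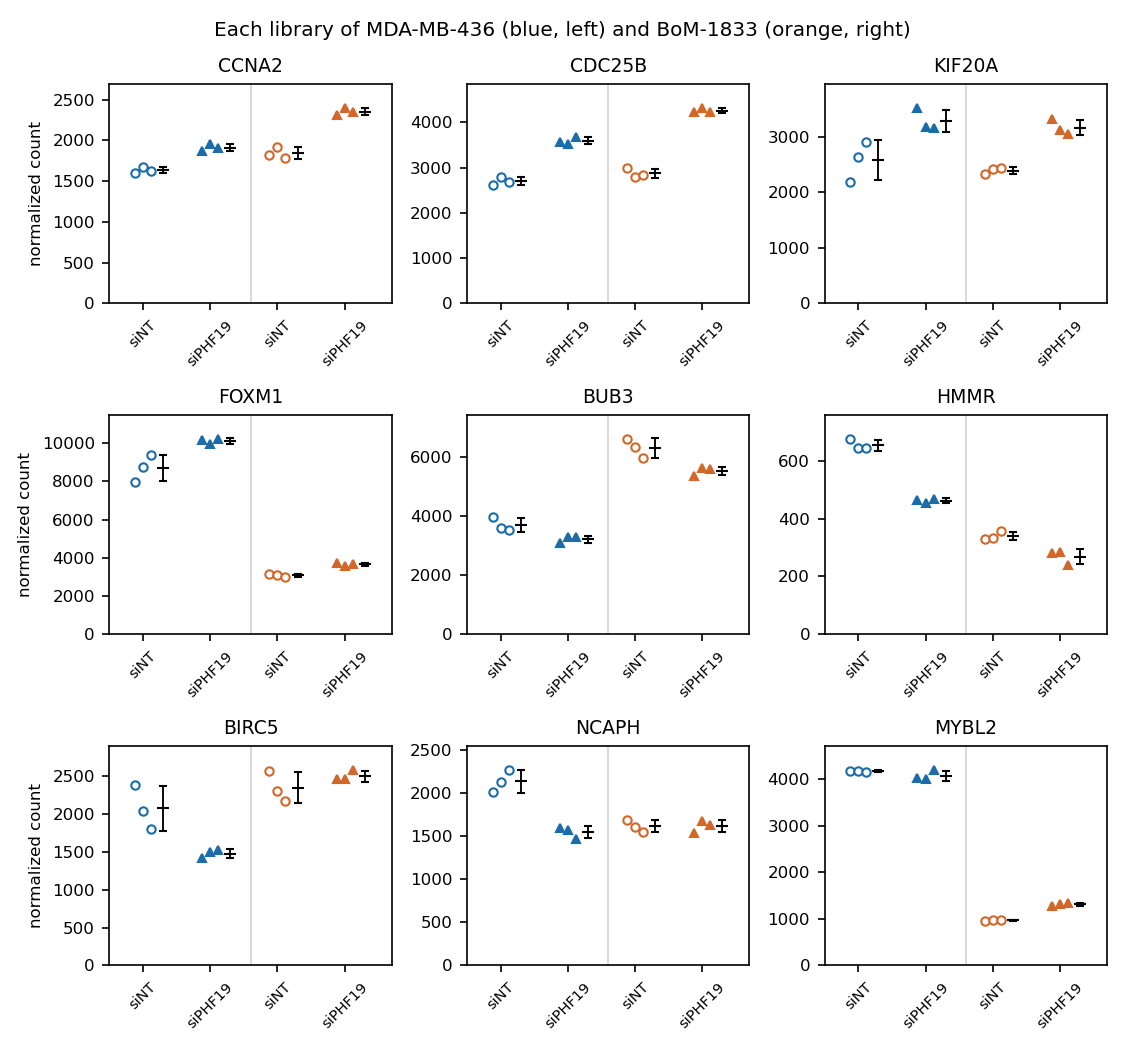
Normalized counts of 9 members in each library (axes start at 0), with siNT as open circles and siPHF19 as filled triangles for MDA-MB-436 (blue) and BoM-1833 (orange); black marks give the mean and SD of 3 libraries. CCNA2, CDC25B, KIF20A and FOXM1 are higher after siPHF19 in both lines, BUB3 and HMMR lower, BIRC5 and NCAPH lower in MDA-MB-436, and MYBL2 higher in BoM-1833.

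Whether the response of a member differed between the lines was tested as the difference of the 2 deposited log2 fold changes over its standard error, adjusted over all 12290 genes tested in both lines. It differed for 3 of the 57 members (5.26%, against 4.89% of all genes): BIRC5, NCAPH and MYBL2. The difference, MDA-MB-436 minus BoM-1833, was -0.58 for BIRC5 (SE 0.13, adjusted p = 0.000415), -0.46 for NCAPH (SE 0.11, adjusted p = 0.00113) and -0.48 for MYBL2 (SE 0.10, adjusted p = 8.35e-05) from the authors' deposited tables, in a z test fitted on all genes. For the other 9 members called in 1 line only, among them AURKB (-0.28, adjusted p = 0.231) and HMMR (-0.17, adjusted p = 0.68), no difference between lines passed this test, although AURKB passed it without BoM-1833 siNT library 1. Of the 57 members 47 (82.5%) had a lower log2 fold change in MDA-MB-436 than in BoM-1833, against 50.1% of all genes, and the median difference was -0.11 against -0.00. The members share their libraries, so this count describes these 12 libraries and is no test.

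**Figure D5:**
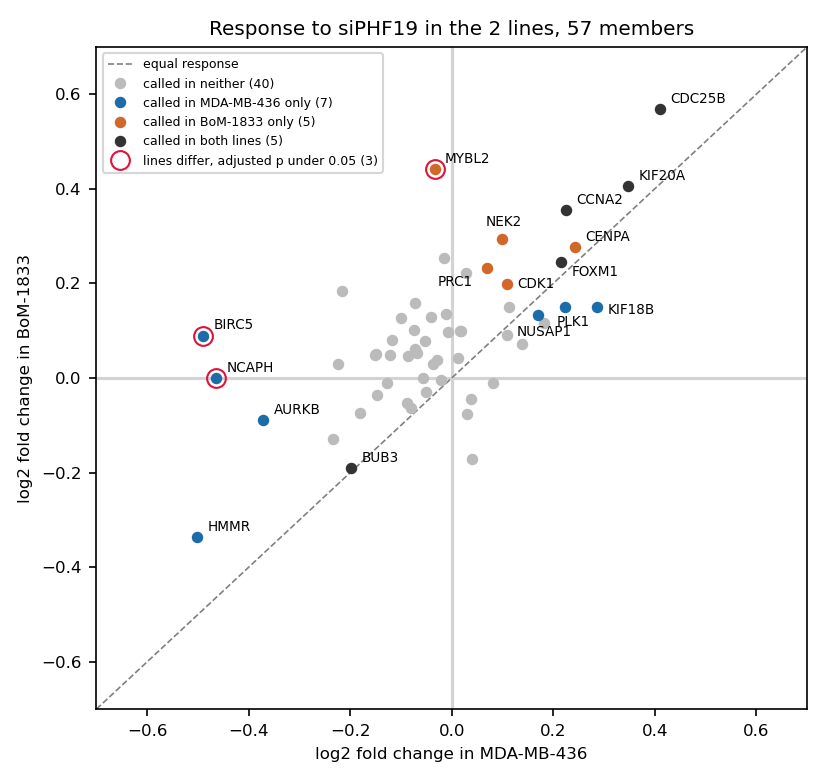
log2 fold change of each of the 57 members in MDA-MB-436 (horizontal) and BoM-1833 (vertical), coloured by the lines in which it was called, with the dashed line of equal response. Points above the dashed line, 47 of 57, responded with a lower value in MDA-MB-436; red rings mark BIRC5, NCAPH and MYBL2, whose response differed between the lines.

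Taken over the transcript pool, the members drew 0.836%, 0.836% and 0.850% of all reads in the MDA-MB-436 controls and 0.860%, 0.847% and 0.847% after siPHF19. In BoM-1833 they drew 0.783%, 0.824% and 0.787% in the controls and 0.848%, 0.855% and 0.854% after siPHF19. The groups overlapped in MDA-MB-436 and did not in BoM-1833. With 3 libraries on each side the smallest p of an exact permutation test is 0.1, so none is given for these sums.

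The response was also set beside the promoter letters. In the authors' deposited tables the 36 members with CHR letters had median log2 fold changes of -0.04 in MDA-MB-436 versus 0.06 in BoM-1833, and the 13 without them -0.01 and 0.16. Of the 36, 3 were called higher and 1 lower in MDA-MB-436, with 3 higher in BoM-1833, and of the 13, 3 were higher and 2 lower in MDA-MB-436, with 5 higher in BoM-1833. Of all tested genes 10.5% were called higher and 11.5% lower in MDA-MB-436, and 5.21% higher in BoM-1833. The called members BIRC5, BUB3 and FOXM1 had no matched promoter and stand in neither group. The split rests on the outermost listed start of each gene, and no test was run on it. CDC25B and MYBL2, which had neither set of letters in the window, had the highest log2 fold changes of the members in BoM-1833. CDC25C, CENPE and KIF2C also had neither set and were called in neither line, with BoM-1833 values of 0.08, -0.04 and 0.10. Split by CCAAT letters, the BoM-1833 medians took the reverse order, 0.11 for the 36 members with them and 0.05 for the 13 without. This split was not tested either, and no link between missing letters and a rise is drawn.

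Genes of the same machinery outside the 57 were read from 5 further lists. Of 33 other kinetochore genes none rose in either line, 9 fell in MDA-MB-436 (27.3%, against 11.5% of all genes) while 1 fell in BoM-1833 (3.03%, against 5.72%), with median log2 fold changes of -0.11 and 0.04 in the authors' deposited tables. ZW10, which recruits dynein to kinetochores, was the one that fell in both lines, at -0.44 ± 0.10 (DESeq2 adjusted p = 0.000126) and -0.30 ± 0.09 (adjusted p = 0.00702) in the authors' deposited tables. TRIP13 and CENPN fell in MDA-MB-436, at -0.37 and -0.36 in the authors' deposited table, and were at 0.04 and -0.10, not called, in BoM-1833; the z test of the difference between lines passed for TRIP13 (adjusted p = 0.0278) and not for CENPN (adjusted p = 0.162). The BoM-1833 call of ZW10 ended without siNT library 2 or any one siPHF19 library (DESeq2 adjusted p = 0.0594 to 0.0691).

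Of 17 APC/C genes 3 fell in MDA-MB-436 (17.6%, against 11.5% of all genes), while 1 rose and 1 fell in BoM-1833 (5.88% each, against 5.21% and 5.72%). CDC26, a small scaffold subunit of APC/C, had 711, 515 and 459 normalized counts in the MDA-MB-436 controls and 225, 176 and 199 after siPHF19. In BoM-1833 it had 504, 465 and 368 against 285, 270 and 282. The groups were separate in both lines, and the change of -1.50 ± 0.17 (DESeq2 adjusted p = 2.67e-16) and -0.68 ± 0.13 (adjusted p = 1.73e-05) in the authors' deposited tables was larger than that of any of the 57 members. CDC16 and ANAPC15 fell in MDA-MB-436, at -0.35 and -0.65 in the authors' deposited table. In BoM-1833 they were at -0.14 and 0.13, not called. ANAPC16 rose in BoM-1833 by 0.21 per the authors' deposited table and was at 0.08, not called, in MDA-MB-436. Its call ended without siNT library 2 or 3 or any one siPHF19 library (DESeq2 adjusted p = 0.094 to 0.313). The z test of the difference between lines passed for ANAPC15 (adjusted p = 0.00598) and not for CDC16 (adjusted p = 0.392) or ANAPC16 (adjusted p = 0.64).

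Of 42 other spindle and mitotic genes 3 rose (7.14%, against 10.5% of all genes) and 7 fell (16.7%, against 11.5%) in MDA-MB-436, and 6 rose (14.3%, against 5.21%) and none fell (against 5.72%) in BoM-1833, with medians of -0.07 and 0.10 in the authors' deposited tables. WEE1, the kinase that places the inhibitory phosphate on CDK1 which CDC25 phosphatases remove, had 719, 724 and 702 normalized counts in the MDA-MB-436 controls and 1096, 1069 and 1205 after siPHF19. BoM-1833 had 764, 776 and 794 in its controls against 1058, 1145 and 1184. It thus rose in both lines, by 0.65 ± 0.09 (DESeq2 adjusted p = 1.09e-11) and 0.54 ± 0.08 (adjusted p = 1.14e-08) in the authors' deposited tables, as did its opponent CDC25B. FAM64A (PIMREG) rose by 0.27 in MDA-MB-436 and by 0.65 in BoM-1833 per the authors' deposited tables, and the MDA-MB-436 call ended without siNT library 1 or 2 or any one siPHF19 library (DESeq2 adjusted p = 0.0687 to 0.302). The microtubule-destabilising protein STMN1 and the augmin subunit HAUS6 fell in MDA-MB-436, at -0.66 and -0.41 in the authors' deposited table. In BoM-1833 they were at -0.13 and -0.22, not called. CDKN3 rose in BoM-1833 by 0.38 and was at 0.20, not called, in MDA-MB-436. The z test of the difference between lines passed for STMN1 (adjusted p = 0.000187) and not for HAUS6 (adjusted p = 0.476) or CDKN3 (adjusted p = 0.517).

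Of 16 DREAM, MuvB, E2F and NF-Y genes 4 rose in MDA-MB-436 (25%, against 10.5% of all genes) while 2 rose in BoM-1833 (12.5%, against 5.21%), and none fell in either. E2F5, the MuvB subunit LIN54 and MYBL1 rose in MDA-MB-436, by 0.51, 0.36 and 0.29 in the authors' deposited table. In BoM-1833 they were at 0.20, 0.17 and -0.06, not called. The z test of the difference between lines passed for none of them (adjusted p = 0.467, 0.584 and 0.0732). E2F5 lost its call without siNT library 2 (DESeq2 adjusted p = 0.0614), LIN54 without siPHF19 library 1 (0.0609) and MYBL1 without siNT library 2 or siPHF19 library 2 or 3 (0.051 to 0.0732). NFYB and TFDP1 rose in BoM-1833, by 0.27 and 0.18 in the authors' deposited table. Both lost their calls without siNT library 2 or 3 or any one siPHF19 library (DESeq2 adjusted p = 0.0538 to 0.252). In MDA-MB-436 they were at 0.17 and 0.02, not called, and the z test between lines passed for neither (adjusted p = 0.763 and 0.342). Of 14 further cohesin and condensin genes NCAPG2, a condensin II subunit, fell in MDA-MB-436 (7.14% of the list, against 11.5% of all genes), at -0.17 ± 0.06 (DESeq2 adjusted p = 0.0229 in the authors' deposited table), and none was called in BoM-1833. NCAPG2 lost its call without siNT library 2 or any one siPHF19 library (DESeq2 adjusted p = 0.157 to 0.253). It was at -0.01 in BoM-1833, and the z test between lines did not pass (adjusted p = 0.383).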

How the data were processed

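The 57 members and all gene lists were chosen with earlier results of these data known. Stranded mRNA libraries of 12 samples were made, per the labels' protocols. The submitters' processing notes name STAR, RSEM 1.3.1, DESeq2 1.46.0 and hg38, without their roles; strand use in counting is not given in the sources used here. The authors deposited 1 table per line with normalized counts per library (a signal scaled by size factors), log2 fold changes, standard errors, a Wald statistic (a score), p-values and adjusted p-values. Genes with an adjusted p were counted as tested; called means an adjusted p under 0.05. No column belonged to another sample (0 columns).

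Apart from the very highest counts, which were not checked, each normalized count was a whole multiple of 1 read's worth in its library. This held for 100% of the checked values, within 0.05 reads. Reads were recovered on that basis and used for alternatives with DESeq2 1.42.0 and edgeR 4.0.16 in R 4.3.3. Scripts were tested on simulated data. RPKM used the longest basic protein-coding transcript in GENCODE 29. Differences between lines used a z test with Benjamini-Hochberg adjustment over 12290 genes. Values per library are given for members called in both lines, those that differed between lines and the 8 called members with the smallest adjusted p in each line; of each other list, the 3 with the smallest adjusted p in each line, with some items not reported here. MKI67 and TOP2A values by library, and the genes named for a library left out, were chosen after their values were seen. DESeq2 on the recovered reads gave the deposited calls. Alternatives were other filters, scalings and thresholds, edgeR, a replicate block and each library left out.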

Additional observations from a re-analysis of the deposited data

Results flagged for a closer look

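In 3 members the response to siPHF19 differed between the lines by the test of the difference itself, a z test on the authors' deposited log2 fold changes adjusted over all genes tested in both lines. The values are MDA-MB-436 minus BoM-1833. BIRC5 differed by -0.58 (adjusted p = 0.000415), with -0.49 in MDA-MB-436 versus 0.09 in BoM-1833. NCAPH differed by -0.46 (adjusted p = 0.00113), with -0.46 and -0.00. MYBL2 differed by -0.48 (adjusted p = 8.35e-05), with -0.03 and 0.44. An interaction term in 1 DESeq2 fit of all 12 libraries called the same 3 members. Groups of 3 libraries are too small for a check of single libraries as outliers.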

How the results depend on the processing

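Of 22 member calls, 9 held under all 12 alternative fits of their line: CDC25B, HMMR, NCAPH, BIRC5 and AURKB in MDA-MB-436 and CDC25B, CCNA2, KIF20A and MYBL2 in BoM-1833. The other 13 were lost under at least 1 and none changed direction, while 15 uncalled values became calls under at least 1. The 12 calls in MDA-MB-436 were 8 at an adjusted p under 0.01, 15 under 0.1, 10 with no filter and 11 by edgeR (each scaling and filter). The 10 calls in BoM-1833 were 6 at an adjusted p under 0.01. Leaving out 1 library gave 5 to 15 calls in MDA-MB-436: 5 without siPHF19 library 1, 6 without siPHF19 library 2 or 3 or siNT library 2, and 15 without siNT library 3. In BoM-1833 it gave 5 to 18: 5 without siPHF19 library 2, 6 without siPHF19 library 3 or siNT library 2, and 18 (14 higher, 4 lower) without siNT library 1. These fits have fewer samples, and the share of all genes called is not set beside the counts of any alternative. The number of members that differed between lines was 3 in the interaction fit and 3 to 4 with 1 library left out, AURKB being the added one without BoM-1833 siNT library 1.

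Same-numbered libraries did not deviate together (correlations of -0.10 to -0.05 in MDA-MB-436 versus -0.23 to -0.14 in BoM-1833). Libraries of unlike number correlated at 0.002 to 0.073 and at -0.005 to 0.191. Deviations from a mean of 3 libraries are tied to each other, so this check cannot settle whether the numbers pair the libraries. With the replicate number as a block, 6 members were called in MDA-MB-436 (2 higher, 4 lower) and 4 in BoM-1833 (4 higher, 0 lower), and 2 differed between lines, NCAPH missing the threshold (adjusted p = 0.0904).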

Other observations

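G1/S and DNA replication genes act before the mitotic program in the cycle. Of 40 such genes 3 rose (7.5%, against 10.5% of all genes) and 15 fell (37.5%, against 11.5%) in MDA-MB-436, and 3 rose (7.5%, against 5.21%) and none fell (against 5.72%) in BoM-1833, with median log2 fold changes of -0.18 and 0.06 in the authors' deposited tables. POLD1 (DNA polymerase delta) and MCM3 (replicative helicase) fell in MDA-MB-436, at -0.50 and -0.37 in the authors' deposited table, and were at -0.08 and -0.02 in BoM-1833. RRM2, the small subunit of ribonucleotide reductase, rose in both lines, by 0.40 ± 0.08 (DESeq2 adjusted p = 2.17e-05) and 0.55 ± 0.06 (adjusted p = 8.72e-16) in the authors' deposited tables. E2F8 and cyclin E2 (CCNE2) also rose in both, by 0.41 and 0.43 in MDA-MB-436 versus 0.51 and 0.45 in BoM-1833 per the authors' deposited tables. Without siPHF19 library 2 CCNE2 lost its call in both lines (DESeq2 adjusted p = 0.115 and 0.15) and E2F8 in BoM-1833 (0.0599), where CCNE2 also lost it without siNT library 3 or siPHF19 library 1 (0.0977 and 0.0979). The letters AAACTG stood in the 3′ UTRs of 15 of 57 members (26.3%), against 47.0% of 11009 tested genes. They stood in 2 of the 5 members called lower and 0 of the 12 called higher. A longer 3′ UTR holds such letters more often, and its length was not taken into account, so no link to direction is drawn.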
